A study of Mus musculus with 9 samples.

Results

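The genes described here are 10 genes of the perineuronal net and of chondroitin sulfate matrix, Acan, Bcan, Ncan, Vcan, Cspg4, Hapln1, Hapln4, Tnr, Tnc and Ptprs. They were chosen by name for their function, out of 55401 genes in the deposited table. No measured value was used as a rule, but earlier results of these data were known when they were chosen. All 10 passed the filter on low counts, as did 15893 genes in all. The study profiled spinal motoneurons of mice with Smart-seq2, a method that makes full-length cDNA from little RNA, to ask how their transcripts change with an injury of the cord and with electrical stimulation given afterwards. A fluorescent label, called TRDA by the submitters, marked the neurons, and glass electrodes drew them out of slices of fresh cord. All mice were wild type (WT), and the tissue was taken 4 weeks after the injury.

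The SBES group had the injury and synergistic bidirectional electrical stimulation, at 10 Hz in replicate 1, 15 Hz in replicate 2 and 20 Hz in replicate 3. Each frequency therefore has 1 library, and no frequency could be tested against another. The Untrained group had the injury and no stimulation, and the Sham group served as its control. Each group has 3 libraries, and the labels name 3 mice per group without saying which mouse or how many neurons went into which library. What the p-values measure is thus only the spread between libraries, which may be technical in part. In SBES that spread also holds any difference between the frequencies, since its libraries do not repeat 1 condition. The table's columns of the 3 Untrained libraries and of SBES 1 were matched to their samples by elimination, and their values below depend on that assignment.

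The perineuronal net is a dense coat of extracellular matrix around the cell body and proximal dendrites of some neurons, spinal motoneurons among them. Its backbone is hyaluronan, to which the lecticans (aggrecan, brevican, neurocan and versican, all chondroitin sulfate proteoglycans) are fastened by link proteins and which tenascin-R cross-links. After an injury of the cord the same proteoglycans are known from the glial scar, where their chondroitin sulfate chains limit axon growth through receptors such as the phosphatase encoded by Ptprs.

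Libraries held between 11821145 and 17675948 counts. The labelled motoneurons were present by their markers, since Chat, the enzyme that makes acetylcholine, lay between 19.6 and 34.6 CPM (counts scaled to a common library size) in the 9 libraries. Markers of other cord cells were abundant too. A list of 10 oligodendrocyte and myelin genes summed to 38430 to 109300 CPM over the libraries, and a list of 10 astrocyte genes to 2338 to 6037 CPM. A level below can therefore come from motoneurons or from other cells, and fewer cells of a type cannot be told apart from less RNA per cell. Mitochondrial transcripts took 18.6% of the counts of SBES 1 and 2.47% to 7.36% of those of the other libraries. Malat1, a nuclear RNA, stood at 16070 CPM of all counts in Untrained 1, 15130 CPM in Sham 1 and 4774 CPM in SBES 1. The remaining libraries had 514 to 1617 CPM, so replicate 1 was the highest of each group.

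Of the 10 genes, Ncan had the largest fitted fold changes against Sham, with lower mean levels in both injured groups than in Sham, but none of the 10 passed the adjusted test in any comparison of the filtered fit. Because Ncan and Bcan are the lecticans with the lowest unadjusted p in Untrained against Sham, their promoter windows are shown, 250 bases before and 50 bases after the RefSeq start of the gene (RefSeq, GRCm38.p6, minus strand, read 5′ to 3′ along the gene). The Ncan window is chr8:70120795-70121094 and the Bcan window is chr3:88000307-88000606. Capitals mark matches on either strand to GGGCGG, the core of a GC box, or to TATAAA, a core promoter element.
Ncan: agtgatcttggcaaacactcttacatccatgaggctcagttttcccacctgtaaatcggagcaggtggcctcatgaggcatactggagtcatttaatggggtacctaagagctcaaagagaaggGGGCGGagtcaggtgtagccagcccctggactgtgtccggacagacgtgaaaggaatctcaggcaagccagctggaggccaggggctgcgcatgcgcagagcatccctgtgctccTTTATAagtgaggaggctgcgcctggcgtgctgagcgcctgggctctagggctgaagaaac
Bcan: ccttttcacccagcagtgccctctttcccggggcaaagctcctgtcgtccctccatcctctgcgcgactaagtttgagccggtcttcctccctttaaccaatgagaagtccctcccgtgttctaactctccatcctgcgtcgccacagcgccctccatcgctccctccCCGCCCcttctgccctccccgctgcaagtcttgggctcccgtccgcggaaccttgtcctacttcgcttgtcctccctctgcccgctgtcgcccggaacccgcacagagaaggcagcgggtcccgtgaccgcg
The Ncan window held 1 match to GGGCGG, at -126 from the start, and 1 to TATAAA, on the reverse strand at -11. The Bcan window held 1 match to GGGCGG, on the reverse strand at -82, and none to TATAAA. Of 32851 promoter windows of this length, 35.7% held GGGCGG and 13.6% held TATAAA. The windows differed in base composition. Bcan had a GC content of 64.0% and 24 CpG dinucleotides, and Ncan had 56.7% and 9, beside medians of 52.7% and 7 over all windows. The RefSeq start of Ncan lies inside the gene as the deposited table places it, and that of Bcan lies just upstream of it. The matches describe letters in these windows and were not tested for binding or use.

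The 10 genes spanned a wide range of transcript level per length. Mean FPKM over the 9 libraries (counts scaled by exon length and library size, as deposited) was 27.6 for Bcan, 16.9 for Hapln4, 2.62 for Ptprs and 1.11 for Ncan. It was 0.618 for Hapln1, 0.327 for Acan, 0.297 for Cspg4, 0.289 for Tnr, 0.193 for Vcan and 0.13 for Tnc. By mean FPKM, Bcan stood above 88.5% and Tnc above 2.27% of the genes tested. Bcan exceeded Hapln4 in 9 of 9 libraries, although their ranges over all libraries overlapped. The steps between Hapln4 and Ptprs and between Hapln1 and Acan had no overlap. Neighbours at the low end did not keep an order across libraries. Acan exceeded Cspg4 in 4 of 9 libraries, Cspg4 exceeded Tnr in 5, Tnr exceeded Vcan in 7 and Vcan exceeded Tnc in 7.

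**Figure D1:**
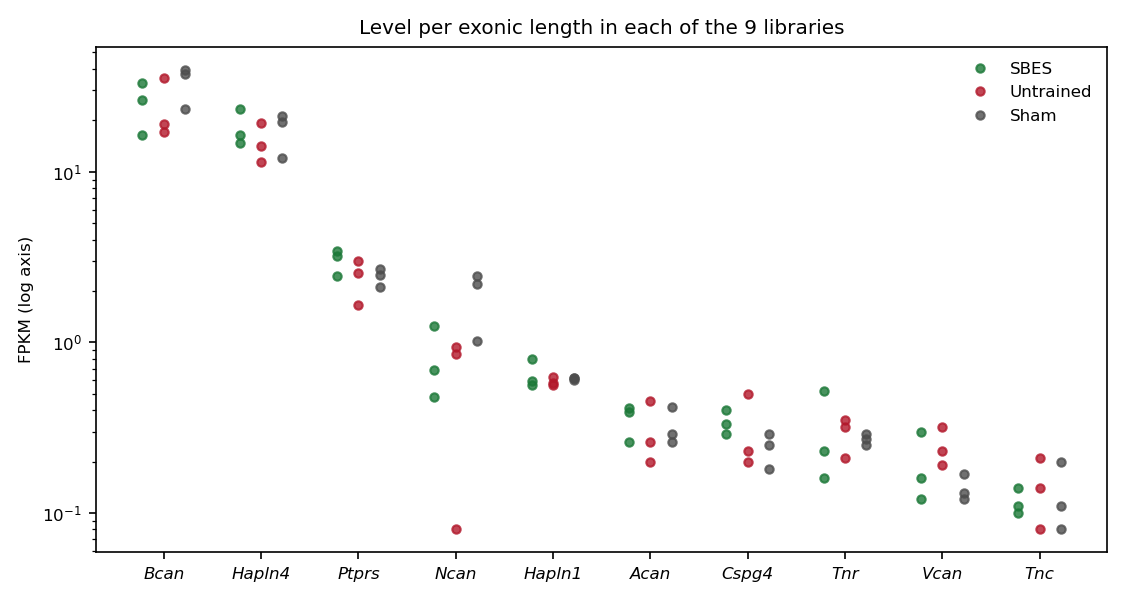
FPKM of each of the 10 genes on a log axis, in order of its mean, with 1 point per library coloured by group (SBES, Untrained, Sham; 3 libraries each). Bcan and Hapln4 lie well above the rest, and the genes from Acan down to Tnc overlap each other.

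Among the lecticans, whose core proteins carry the chondroitin sulfate chains and bind hyaluronan, brevican was the dominant transcript. Bcan (ENSMUSG00000004892, chromosome 3) made up 92.2% to 97.1% of the summed lectican FPKM in each of the 9 libraries. Ncan (ENSMUSG00000002341, chromosome 8) made up 2.73%, 2.51% and 3.54% in SBES 1 to 3 and 0.453%, 4.11% and 2.54% in Untrained 1 to 3, against 4.12%, 5.51% and 5.77% in Sham 1 to 3. The Ncan share of each injured library was below that of every Sham library, by a narrow margin for Untrained 2. Set against Bcan alone the groups overlapped, since the ratio of Ncan to Bcan FPKM was 0.0446 in Untrained 2 and 0.0438 in Sham 1.

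Ncan, neurocan, a proteoglycan secreted by neurons and by reactive astrocytes, had 4.57, 4.51 and 8.78 CPM in SBES 1 to 3. It had 0.529, 5.29 and 6.15 CPM in Untrained 1 to 3, and 10.1, 13.8 and 17.0 CPM in Sham 1 to 3. By these values, scaled by TMM, all 6 injured libraries lay below all 3 Sham libraries, and Untrained 1 lay far below every other library. Scaled by total counts alone, a check of overlap added after the values were seen, Ncan ran up to 8.93 CPM in SBES and 6.79 in Untrained, against 7.36 or more in Sham, so SBES and Sham then overlapped and Untrained and Sham did not. Untrained 1 held 8 Ncan counts (exact Poisson 95% interval 3.45 to 15.8, for counting error only), while the other 8 libraries held between 41 and 311. Ncan averaged 5.95 ± 2.45 CPM in SBES and 3.99 ± 3.03 in Untrained, against 13.6 ± 3.42 in Sham (SD, n = 3 each).

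In edgeR's quasi-likelihood test on all 15893 genes, Ncan had a log2 fold change of -1.77 in Untrained against Sham (SE 0.599, 95% interval -3.07 to -0.47). Its unadjusted p was 0.0119, and its Benjamini-Hochberg adjusted p from edgeR was 0.9997, so the difference did not pass. DESeq2 gave an adjusted p of 0.4201 for the same difference. In SBES against Sham the log2 fold change of Ncan was -1.19 (SE 0.59, unadjusted p = 0.0661, adjusted p = 0.5762). In SBES against Untrained it was 0.58 (SE 0.597, unadjusted p = 0.351, adjusted p = 0.9964), and those libraries overlapped. The 2 comparisons against Sham share the Sham libraries. Without Untrained 1 the log2 fold change in Untrained against Sham was -1.22 (unadjusted p = 0.00708, adjusted p = 0.9747), and in SBES against Untrained it was 0.05.

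The test of Ncan turned on the filter for low counts. With no filter, edgeR called Ncan in Untrained against Sham (log2 fold change -1.71, SE 0.354, adjusted p = 0.0009021) and in SBES against Sham (-1.17, SE 0.348, adjusted p = 0.04838). The fit without a filter tested 31752 genes and called 134 and 517 of them in those comparisons, while the filtered fit called 0 and 55. Over all 17 alternatives the adjusted p for Untrained against Sham was 0.0009021 or higher, and the log2 fold change stayed between -2.21 and -0.84. A contrast of all 6 injured libraries with Sham, added after the values were seen, gave Ncan a log2 fold change of -1.48 (SE 0.487, unadjusted p = 0.0101, adjusted p = 0.4308). In that contrast edgeR called 0.0944% of all genes, and 1.86% had every injured library below every Sham library by TMM-scaled CPM. With scaling by total counts alone the injured and Sham libraries of Ncan overlapped.

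The levels of cell type markers were summed beside Ncan. Such sums are weighted by their most abundant genes. Over the 9 libraries Gfap of the astrocyte list ran from 1150 to 4379 CPM, and Olig1 of the precursor list from 76.1 to 412.5 CPM. Nefh and Calca of the motor neuron list ran from 386.2 to 1545 and from 35.9 to 545.9 CPM. Snap25 and Nefl of the pan-neuronal list ran from 1661 to 4334 and from 1022 to 3268 CPM. The 10 astrocyte markers summed to 3278 to 6037 CPM in SBES and 2338 to 5280 in Untrained, against 3164 to 4981 in Sham. The 10 oligodendrocyte precursor markers summed to 350.5 to 560.1 CPM in SBES and 187.2 to 499 in Untrained, against 350.9 to 573.3 in Sham. The 10 motor neuron markers summed to 750.1 to 2047 CPM in SBES and 632.6 to 984.1 in Untrained, against 1436 to 1987 in Sham. The 10 pan-neuronal markers summed to 5599 to 11380 CPM in SBES and 6081 to 6488 in Untrained, against 8070 to 12020 in Sham. No gene of these 4 lists was at 0 in any library. Untrained libraries thus lay below Sham libraries without overlap in both neuronal sums, and the groups overlapped in the astrocyte and precursor sums. Gene by gene, 9 of 10 motor neuron and 7 of 10 pan-neuronal markers had a fitted log2 fold change below 0 in Untrained against Sham. edgeR called 0 of these markers there.

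Markers of vessels, microglia and myelin were summed in the same way, and Mbp, at 32380 to 94290 CPM, dominated the myelin sum. Slc2a1 of the endothelium and pericyte list ran from 101.4 to 510.1 CPM and weighed most in that sum. The 10 endothelium and pericyte markers summed to 456.6 to 828.7 CPM in SBES and 478.4 to 686.2 in Untrained, against 283.9 to 435.3 in Sham. Both injured groups were thus above Sham without overlap, the reverse of the order for Ncan, although SBES and Sham overlapped in this sum with scaling by total counts alone. The share of all genes above Sham without overlap is not given here. The 10 microglia and macrophage markers summed to 747.2 to 2433 CPM in SBES and 1031 to 1231 in Untrained, against 563.7 to 1350 in Sham. The 10 oligodendrocyte and myelin markers summed to 47150 to 77150 CPM in SBES and 38430 to 57930 in Untrained, against 49510 to 109300 in Sham. In Untrained against Sham the fitted log2 fold change was above 0 for 9 of 10 microglia markers and 8 of 10 endothelium and pericyte markers and below 0 for 10 of 10 myelin markers, and edgeR called 0 of them. It was above 0 for 7, 9 and 2 of 10 in that order in SBES against Sham, and edgeR called 1 gene each of the endothelium, motor neuron and myelin lists. Slc2a1, the glucose transporter of brain vessels, rose (log2 fold change 1.56, adjusted p = 0.0366), Calca, a neuropeptide gene, fell (-2.54, adjusted p = 0.02871), and Ugt8a, an enzyme of myelin lipid synthesis, fell (-2.33, adjusted p = 0.01485). These 3 are named because they passed, after their values were seen.

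Set against the sums of 5 of these lists, a comparison chosen after the values were seen, Ncan gave 1.08 to 1.46 CPM per 1000 CPM of astrocyte markers in SBES and 0.226 to 1.67 in Untrained, against 2.03 to 4.76 in Sham. Per 1000 CPM of oligodendrocyte precursor markers it gave 11.8 to 15.7 in SBES and 2.83 to 13.3 in Untrained, against 28.9 to 31.9 in Sham. Neither of these ratios overlapped between injured and Sham libraries, and the ratios do not depend on how libraries are scaled. How many of all genes would separate by such a ratio was not counted. The astrocyte sum leans on Gfap and the precursor sum on Olig1, so these ratios are in large part ratios to single genes. The other 3 ratios overlapped. Per 1000 CPM of motor neuron markers Ncan gave 2.23 to 6.01 in SBES and 0.836 to 6.54 in Untrained, against 6.0 to 9.64 in Sham. Per 1000 CPM of pan-neuronal markers it gave 0.402 to 1.33 in SBES and 0.0815 to 0.965 in Untrained, against 0.843 to 1.96 in Sham. Per 1000 CPM of myelin markers it gave 0.0592 to 0.127 in SBES and 0.0138 to 0.106 in Untrained, against 0.0927 to 0.279 in Sham. The same ratios of Bcan and Hapln4 overlapped with Sham throughout. Ptprs per 1000 CPM of motor neuron markers was higher in Untrained than in Sham (33.5 to 43.5 against 19.5 to 25.9). The level of Ptprs itself was not higher there, with means of 32.55 CPM in Untrained and 38.23 in Sham. The motor neuron sum below it in the ratio was lower (632.6 to 984.1 CPM against 1436 to 1987). Per 1000 CPM of pan-neuronal markers Ptprs was higher in SBES than in Sham (5.50 to 7.83 against 3.63 to 4.48), and its other ratios overlapped with Sham. The part of these cell types in the Ncan difference was not tested.

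Bcan, brevican, which glia and neurons make and which is a main lectican of the adult nervous system, had 87.8, 97.4 and 132.7 CPM in SBES 1 to 3. It had 66.4, 66.9 and 131.4 CPM in Untrained 1 to 3, and 130.4, 132.8 and 154.6 CPM in Sham 1 to 3. By these values Untrained 1 and 2 were the lowest of the 9 libraries, and by FPKM SBES 1 was the lowest. Untrained 3 and SBES 3 reached the lower end of Sham, so all groups overlapped. Its log2 fold change was -0.66 in Untrained against Sham (SE 0.288, unadjusted p = 0.0405, adjusted p = 0.9997) and -0.39 in SBES against Sham (SE 0.287, unadjusted p = 0.194, adjusted p = 0.7523). In SBES against Untrained it was 0.27 (SE 0.287, unadjusted p = 0.373). Single libraries moved these values. Without Untrained 3 the log2 fold change of Bcan was -1.06 in Untrained against Sham (unadjusted p = 0.00202, adjusted p = 0.9971) and 0.67 in SBES against Untrained (unadjusted p = 0.027, adjusted p = 0.8308). Without Untrained 1 it was -0.46 in Untrained against Sham.

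Acan (chromosome 7) encodes aggrecan, the lectican most closely tied to perineuronal nets. It had 3.79, 1.73 and 3.03 CPM in SBES 1 to 3, 1.45, 2.90 and 1.75 CPM in Untrained 1 to 3 and 2.72, 1.90 and 3.05 CPM in Sham 1 to 3. The groups overlapped throughout, and the counts per library were only 22 to 56. For Acan the log2 fold change was -0.33 in Untrained against Sham (95% interval -1.22 to 0.57) and 0.47 in SBES against Untrained (-0.43 to 1.37). It was 0.14 in SBES against Sham (-0.75 to 1.04). Each interval includes 0, so differences of either sign within these bounds remain compatible with these libraries.

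Vcan (chromosome 13) encodes versican, a large lectican of astrocytes, oligodendrocyte precursors and vessels. It had 5.68, 1.60 and 2.29 CPM in SBES 1 to 3, 3.11, 3.95 and 2.53 CPM in Untrained 1 to 3 and 3.38, 1.65 and 1.69 CPM in Sham 1 to 3. SBES 1 was the highest library and SBES 2 the lowest by these values, while by FPKM Untrained 2 (0.32) was above SBES 1 (0.3). Its mean was higher in Untrained than in Sham, by a log2 fold change of 0.55 that did not pass (SE 0.488, unadjusted p = 0.285, adjusted p = 0.9997). In SBES against Sham it was 0.51, and it was -0.14 without SBES 1, the only library of its stimulation frequency. An antisense gene model, Gm4117, overlaps Vcan and held 54 counts over the 9 libraries against 359 for Vcan. Whether the counting used strand is not given in the sources used here.

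Cspg4 (chromosome 9) encodes NG2, a transmembrane proteoglycan known from oligodendrocyte precursors and pericytes. It had 6.24, 3.19 and 3.90 CPM in SBES 1 to 3, 2.31, 5.12 and 2.53 CPM in Untrained 1 to 3 and 4.69, 1.90 and 2.84 CPM in Sham 1 to 3. By these values no group separated from another. For Cspg4 the log2 fold change was 0.11 in Untrained against Sham (SE 0.442), 0.40 for SBES against Untrained (SE 0.438) and 0.51 for SBES relative to Sham (SE 0.444), with unadjusted edgeR p of 0.811, 0.379 and 0.274 in that order. Those values lie within their standard errors or close to them.

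**Figure D2:**
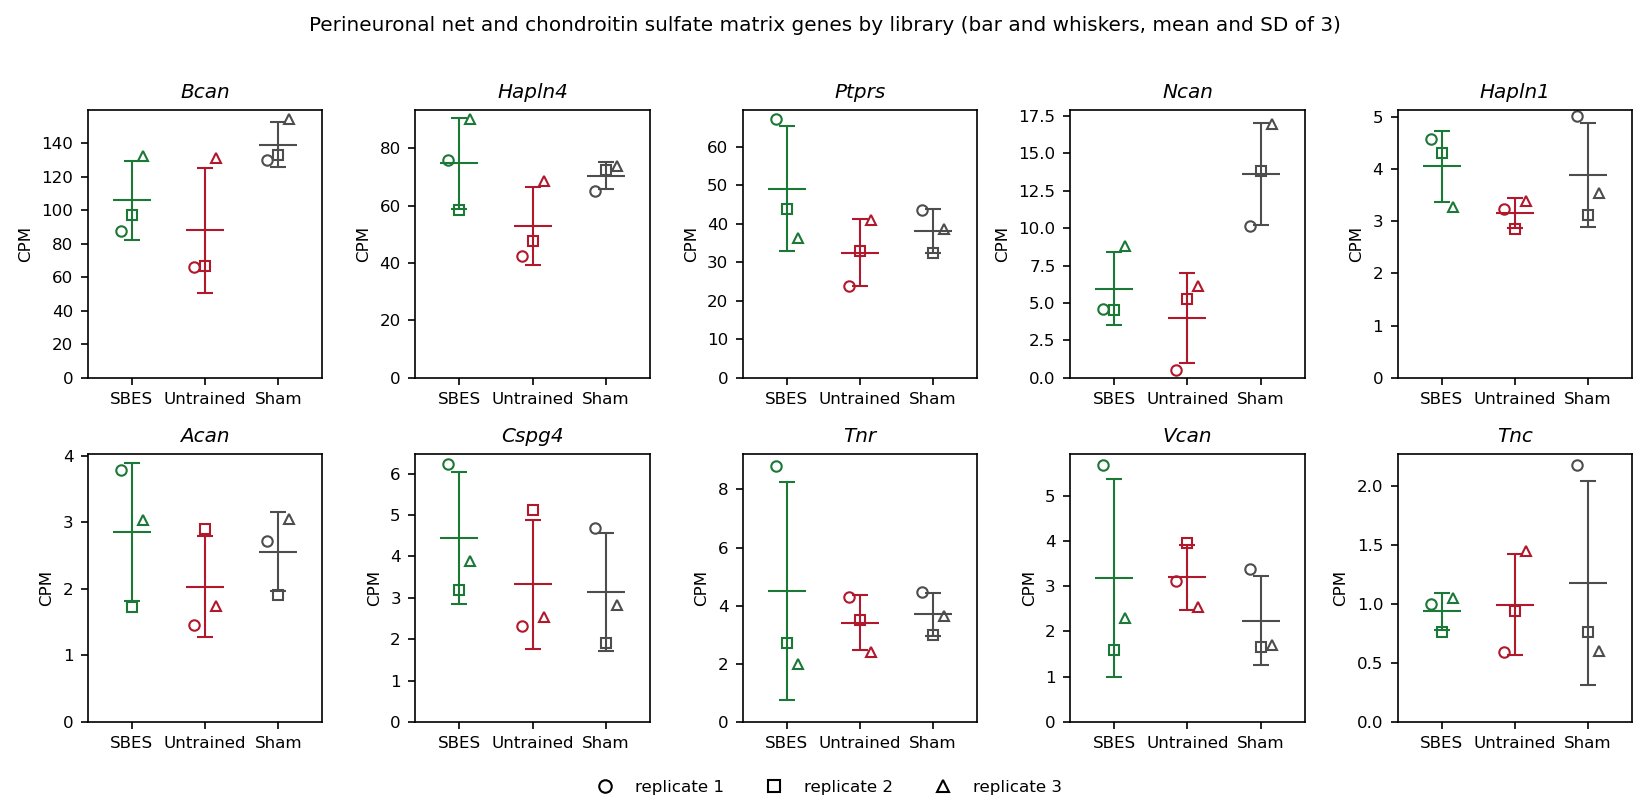
CPM of each of the 10 genes in the 9 libraries, 1 panel per gene with its own axis from 0; points are libraries, grouped as SBES, Untrained and Sham from left to right, and bars mark the group mean ± SD (n = 3). In the Ncan panel the 3 Sham points, at 10.1 to 17.0 CPM by TMM scaling, lie above the 6 injured points (SBES and Sham overlap with total count scaling), and Untrained 1 is near 0.

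The link proteins tie lecticans to hyaluronan. Hapln4 (ENSMUSG00000007594, chromosome 8), a link protein that partners brevican, had 75.9, 58.5 and 90.0 CPM in SBES 1 to 3. It had 42.6, 47.7 and 68.5 CPM in Untrained 1 to 3, and 64.9, 72.5 and 73.9 CPM in Sham 1 to 3. Untrained 1 and 2 were the lowest libraries by these values, while Untrained 3 lay inside the range of Sham and of SBES. The log2 fold change was -0.41 in Untrained against Sham (SE 0.242, unadjusted p = 0.112) and 0.50 in SBES against Untrained (SE 0.242, unadjusted p = 0.061, adjusted p = 0.9433). In SBES against Sham it was 0.09 (95% interval -0.44 to 0.61).

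Hapln1 (chromosome 13), the cartilage link protein that is also needed for compact nets, had 4.57, 4.30 and 3.28 CPM in SBES 1 to 3. It had 3.24, 2.84 and 3.38 CPM in Untrained 1 to 3, and 5.01, 3.11 and 3.54 CPM in Sham 1 to 3. It varied least of the 10 genes, its highest library being 1.77 times its lowest. The log2 fold change was -0.29 in Untrained against Sham (95% interval -0.97 to 0.39), 0.35 for SBES against Untrained (-0.32 to 1.04) and 0.06 for SBES relative to Sham (-0.62 to 0.74).

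Among all 4 link protein genes, Hapln2, which oligodendrocytes make for nodes of Ranvier, dominated. It took 72.6% to 84.5% of the summed link protein FPKM of a library, Hapln4 took 15% to 25.8% and Hapln1 took 0.359% to 1.26%. The level of Hapln2 was 188.4 ± 107.1 CPM in SBES and 123.4 ± 26.3 in Untrained, against 147.6 ± 19.6 in Sham (SD, n = 3 each). The level of Hapln3 was 0.875 ± 0.342 CPM in SBES and 1.41 ± 0.424 in Untrained, against 1.28 ± 0.801 in Sham.

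Each lectican gene has a link protein gene beside it, with no gene between them in the deposited table (build mm10, per the submitters' processing notes). Ncan (chromosome 8, 70093085 to 70120873, minus strand) and Hapln4 (70083457 to 70090862, plus strand) meet tail to tail across 2222 bases. Vcan (chromosome 13, 89655312 to 89742509) and Hapln1 (89539796 to 89611652) meet tail to tail across 43.7 kb. Acan (chromosome 7, 79053483 to 79115099) and Hapln3 end 2 bases apart, so without a stranded count reads at that border can go to either gene. Bcan (chromosome 3, 87987531 to 88000230) and Hapln2 lie on the same strand, 21.5 kb apart. Differences between neighbours were not tested. In Untrained against Sham the log2 fold change was -1.77 for Ncan and -0.41 for Hapln4, 0.55 for Vcan and -0.29 for Hapln1, -0.66 for Bcan and -0.26 for Hapln2, and -0.33 for Acan and 0.10 for Hapln3. As a description over the 9 libraries, which share their scaling, log2 levels of Ncan and Hapln4 had a Pearson's r of 0.717. For the neighbours Vcan and Hapln1 it was 0.251. Pairs on different chromosomes had higher values, 0.828 for Ncan and Bcan and 0.796 for Bcan and Hapln4.

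**Figure D3:**
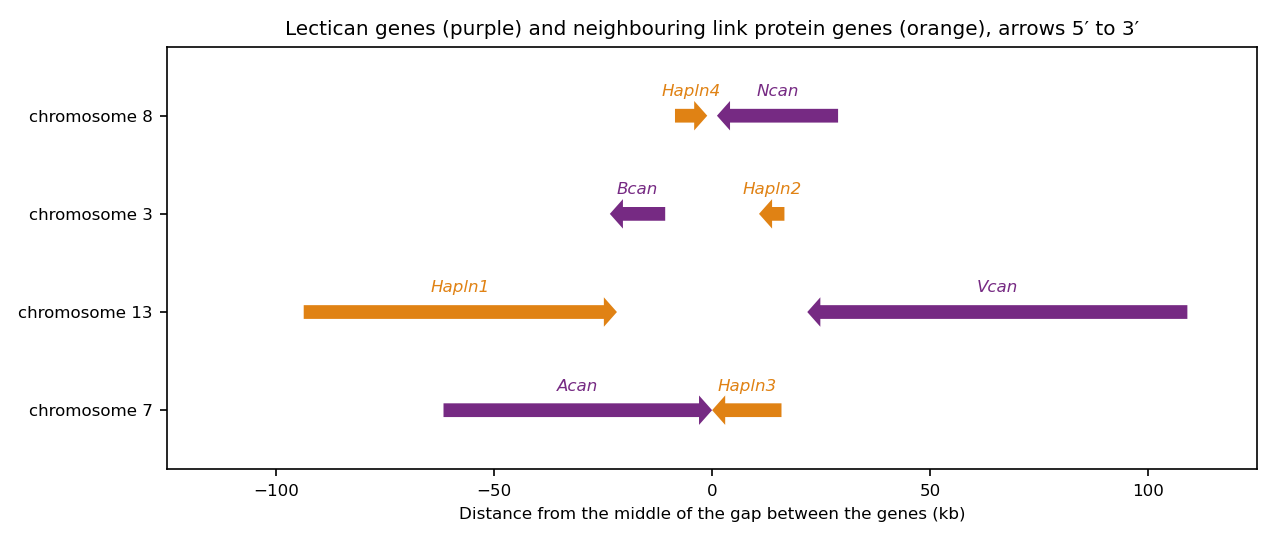
Positions of the 4 lectican genes (purple) and their neighbouring link protein genes (orange), as distance in kb from the middle of the gap between the genes, with arrows pointing 5′ to 3′. The gap is 2.22 kb for Ncan and Hapln4, 21.5 kb for Bcan and Hapln2, 43.7 kb for Vcan and Hapln1, and too short to see for Acan and Hapln3.

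Tenascins join the lecticans into a lattice. Tnr (chromosome 1), tenascin-R, made by oligodendrocytes and some neurons, had 8.80, 2.71 and 1.98 CPM in SBES 1 to 3. It had 4.30, 3.51 and 2.41 CPM in Untrained 1 to 3, and 4.47, 2.98 and 3.65 CPM in Sham 1 to 3. SBES 1 was the highest of the 9 libraries and SBES 3 the lowest. Fitted log2 fold changes of Tnr were 0.37 in SBES against Untrained and 0.25 when SBES was set against Sham (SE 0.501 and 0.503). Without SBES 1 it was -0.54 and -0.63 in those comparisons, so the sign of both values rested on that library. SBES 1 is the only library of its stimulation frequency, and it also had 18.6% mitochondrial counts. The part of the frequency or of the mitochondrial share in this was not tested.

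Tnc (chromosome 4), tenascin-C, known from developing and reactive glia, was near the lower limit of what was counted, with 9 to 24 counts per library. It had 1.00, 0.763 and 1.05 CPM in SBES 1 to 3, 0.595, 0.946 and 1.45 CPM in Untrained 1 to 3 and 2.18, 0.762 and 0.6 CPM in Sham 1 to 3. The log2 fold change was -0.17 in Untrained against Sham (95% interval -1.40 to 1.06), -0.09 for SBES against Untrained (-1.33 to 1.14) and -0.26 for SBES relative to Sham (-1.52 to 0.99). Differences of either sign within these wide bounds remain compatible with the Tnc counts.

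Ptprs (ENSMUSG00000013236, chromosome 17), which encodes a receptor phosphatase that binds chondroitin sulfate chains, had 67.3, 43.8 and 36.2 CPM in SBES 1 to 3. It had 23.7, 33.0 and 40.9 CPM in Untrained 1 to 3, and 43.7, 32.3 and 38.7 CPM in Sham 1 to 3. SBES 1 was the highest library and Untrained 1 the lowest, and all groups overlapped. The log2 fold change was 0.59 in SBES against Untrained (SE 0.281, unadjusted p = 0.057, adjusted p = 0.9366). Without SBES 1, the only library of its stimulation frequency, it was 0.29. With all libraries it was 0.36 in SBES against Sham (SE 0.281) and -0.23 in Untrained against Sham (SE 0.281).

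Counted over the 10 genes, edgeR called 0 in each comparison at an adjusted p under 0.05. It called 0% of all genes tested in Untrained against Sham, 0% for SBES against Untrained and 0.346% for SBES relative to Sham. DESeq2 called 0 of the 10 genes, beside 0.0857%, 0.192% and 1.8% of all genes with an adjusted p, in the same order. At an unadjusted p under 0.05, edgeR had 2 of the 10 (Ncan and Bcan, both lower) in Untrained against Sham, beside 4.45% of all genes. It had 0 in SBES against Untrained, beside 5.37%, and 0 in SBES against Sham, beside 9.31%. For 1 of the 10, Ncan, every Untrained library lay below every Sham library, as for 5.13% of all genes, and every SBES library lay below every Sham library, as for 6.73% of all genes, the second only with TMM scaling and not by total counts. With total count scaling, 2 others did not overlap, Vcan being higher in Untrained than in Sham (2.79 to 4.58 against 1.75 to 2.45 CPM) and Cspg4 in SBES than in Sham (3.51 to 4.74 against 2.18 to 3.40 CPM). The share of all genes free of overlap with that scaling was not counted, so these 2 cannot be set against it. The median log2 fold change over all genes in Untrained against Sham was then 0.18. SBES and Untrained libraries overlapped for each of the 10, while 10.4% of all genes were free of overlap there.

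The signs of the 10 fitted values differed between comparisons, with no value past the test. In Untrained against Sham, 8 of the 10 were below 0 and their median log2 fold change was -0.26, against -0.01 over all genes tested, of which 50.9% were below 0. In SBES against Untrained, 8 were above 0 with a median of 0.38, against 0.01 over all genes, of which 51.7% were above 0. These comparisons share the Untrained libraries, of which Untrained 1 was the lowest of the 9 libraries for 6 of the 10 genes by TMM-scaled CPM and for 4 with total count scaling. In SBES against Sham, 7 were above 0 with a median of 0.11, beside 49.8% of all genes. With scaling by total counts alone, Tnr and Tnc turned positive in Untrained against Sham, where 6 of the 10 were then below 0 and the median over all genes was 0.18. SBES 1 was the highest of the 9 libraries for 5 of the 10 genes, namely Acan, Vcan, Cspg4, Tnr and Ptprs, by TMM-scaled CPM. With total count scaling it was the highest for 2, Tnr and Ptprs, and Untrained 2 was the highest for Acan, Vcan and Cspg4.

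**Figure D4:**
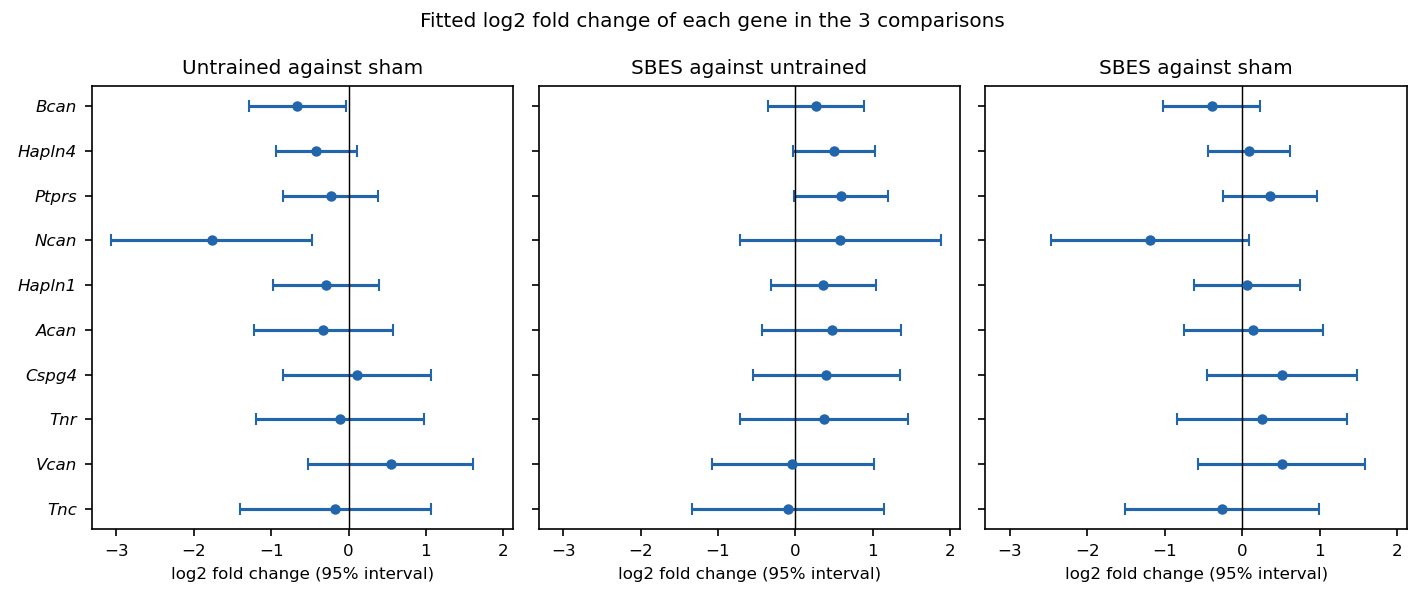
Fitted log2 fold change of each gene with its 95% interval (bars), in panels for Untrained against Sham (left), SBES against Untrained (middle) and SBES against Sham (right), on a log2 axis. In Untrained against Sham the intervals of Ncan (-3.07 to -0.47) and Bcan (-1.29 to -0.03) lie below 0, and the intervals of the other genes include 0.

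The wider pathway was read from 7 lists of 111 genes, which include the 10, and 98 of the 111 were tested. edgeR called 0 of them in each comparison. Their median log2 fold change was -0.05 in Untrained against Sham, with 44 above and 54 below 0. It was 0.21 in SBES against Untrained, with 65 above and 33 below, and the same counts held in SBES against Sham. At an unadjusted p under 0.05 there were 6, 7 and 12 of the 98, beside 4.45%, 5.37% and 9.31% of all genes. The lists follow in the order of their part in making, holding and cutting the matrix. The genes named in each are a part of those of smallest unadjusted p or fixed by name. Where a named gene is free of overlap, the shares of all genes by TMM-scaled CPM apply. They are 10.4% in SBES against Untrained in either direction, 5.13% for Untrained below Sham and 6.73% for SBES below Sham. The share for SBES above Sham is not given here.

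Of the 14 genes of chondroitin sulfate chain synthesis, 7 were above 0 in Untrained against Sham, 11 for SBES against Untrained and 10 for SBES relative to Sham. Chsy1, a chondroitin synthase that extends the chain, had 1.82 ± 0.353 CPM in SBES and 0.628 ± 0.316 in Untrained, against 1.26 ± 0.377 in Sham (SD, n = 3 each). Its SBES libraries lay above both other groups, though they overlapped with Sham by total counts, with a log2 fold change of 1.51 in SBES against Untrained (SE 0.498, unadjusted p = 0.0101, adjusted p = 0.867). Chpf, the chondroitin polymerizing factor, had a mean of 66.1 CPM in SBES and 42.6 CPM in Untrained, without overlap by TMM-scaled CPM only (unadjusted p = 0.0337, adjusted p = 0.9137). Csgalnact1, which starts the chain, had 11.4 ± 1.54 CPM in SBES and 9.36 ± 1.36 in Untrained, against 9.80 ± 1.92 in Sham. Chsy3 had the smallest unadjusted p of this list in Untrained against Sham (log2 fold change -1.28, unadjusted p = 0.0389, adjusted p = 0.9997).

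Of the 12 sulfation genes 11 were tested, and 5, 3 and 5 of them were above 0 in the same order of comparisons. Papss2, which makes the sulfate donor, had a mean of 9.96 CPM in SBES and 4.61 CPM in Untrained, against 5.49 CPM in Sham. Its log2 fold change in SBES against Untrained was 1.10 (SE 0.373, unadjusted p = 0.0118, adjusted p = 0.867), and its SBES libraries did not overlap with either other group. Chst3, the 6-O-sulfotransferase, was low, with 0.447 ± 0.171 CPM in SBES and 0.471 ± 0.236 in Untrained, against 0.993 ± 0.557 in Sham. Each injured group of Chst3 lay below Sham without overlap, with TMM and with total count scaling. Neither difference passed (adjusted p = 0.9997 in Untrained against Sham, adjusted p = 0.6616 in SBES against Sham). Chst11, a 4-O-sulfotransferase, had 4.00 ± 1.24 CPM in SBES and 3.26 ± 1.14 in Untrained, against 2.90 ± 0.381 in Sham.

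Among 18 core proteoglycans, of which 17 were tested, Ncan and Bcan had the smallest unadjusted p in Untrained against Sham. Spock1, testican-1, had means of 98.9 CPM in SBES and 70.4 CPM in Untrained, against 65.7 CPM in Sham, with a log2 fold change of 0.59 in SBES against Sham (SE 0.21, unadjusted p = 0.0156, adjusted p = 0.3589). Cspg5, neuroglycan C, stood at 73.7 ± 7.47 CPM in SBES and 92.7 ± 22 in Untrained, against 81.4 ± 14.3 in Sham. Ptprz1, the phosphatase whose secreted form is phosphacan, stood at 28.4 ± 15.0 CPM in SBES and 21.6 ± 6.22 in Untrained, against 27.4 ± 14.8 in Sham. Cd44, a hyaluronan receptor, stood at 9.27 ± 1.74 CPM in SBES and 6.60 ± 2.79 in Untrained, against 7.13 ± 4.77 in Sham.

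Of the hyaluronan synthases, Has1 had 2.64 ± 1.58 CPM in SBES and 3.83 ± 0.759 in Untrained, against 4.40 ± 1.58 in Sham. Has2 was filtered out, with at most 0.19 CPM in any library. Has3 had 2.02 ± 0.958 CPM in SBES and 1.22 ± 0.262 in Untrained, against 1.96 ± 0.266 in Sham. The Untrained libraries of Has3 lay below the Sham libraries without overlap (with TMM scaling only), with a log2 fold change of -0.67 (SE 0.422, unadjusted p = 0.137). Of the 10 link protein and hyaluronan genes tested, 2 were above 0 in Untrained against Sham and 6 in each of the SBES comparisons. Of the 9 tenascin and net-associated genes tested, 3 were above 0 in Untrained against Sham, 8 for SBES against Untrained and 7 for SBES relative to Sham, and none had an unadjusted p under 0.05.

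Of the 16 receptor genes tested, 6, 11 and 10 were above 0, again in that order. Ngfr, the p75 co-receptor of the Nogo receptor, was rare, with means of 0.754 CPM in SBES and 0.285 CPM in Untrained, against 1.19 CPM in Sham. Its log2 fold change was -2.03 in Untrained against Sham (SE 0.572, unadjusted p = 0.00384, adjusted p = 0.927) and 1.41 in SBES against Untrained (SE 0.587, unadjusted p = 0.0334, adjusted p = 0.9137). Rtn4r, the Nogo receptor itself, had 2.48 ± 0.428 CPM in SBES and 3.28 ± 1.43 in Untrained, against 3.58 ± 1.01 in Sham. Ptprf, the LAR phosphatase related to Ptprs, had 17.2 ± 2.71 CPM in SBES and 15.1 ± 4.06 in Untrained, against 13.6 ± 3.56 in Sham. In SBES against Sham, Tnfrsf19 was lower (log2 fold change -0.57, unadjusted p = 0.0251, adjusted p = 0.4348). Each injured group of Tnfrsf19 lay below Sham without overlap with both scalings. Plxna1 was higher in SBES than in Sham (1.28, unadjusted p = 0.0357, adjusted p = 0.4932), with overlap.

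Of the 21 matrix protease, lysosomal and inhibitor genes tested, 11, 14 and 14 were above 0, and 2, 1 and 7 had an unadjusted p under 0.05, in the same order of comparisons. Idua, a lysosomal enzyme of dermatan and heparan sulfate breakdown, had means of 22.5 CPM in SBES and 27.0 CPM in Untrained, against 40.0 CPM in Sham. Both injured groups lay below Sham without overlap, and the log2 fold change in SBES against Sham was -0.82 (SE 0.238, unadjusted p = 0.00469, adjusted p = 0.2141). Mmp9, a matrix metalloproteinase, had means of 5.72 CPM in SBES and 5.57 CPM in Untrained, against 8.62 CPM in Sham, again with each injured group below Sham with TMM scaling and overlap with total count scaling (adjusted p = 0.4932 in SBES against Sham, adjusted p = 0.9997 in Untrained against Sham). Adamts4, an enzyme that cuts aggrecan and brevican, had 11.2 ± 1.80 CPM in SBES and 13.5 ± 5.49 in Untrained, against 20.3 ± 2.38 in Sham. Its SBES libraries lay below Sham without overlap with both scalings (unadjusted p = 0.017, adjusted p = 0.3716), and Untrained overlapped with Sham. Other genes of the list were higher in SBES. Galns had means of 7.13 CPM in SBES and 4.86 CPM in Untrained, against 3.82 CPM in Sham. Its log2 fold change in SBES against Sham was 0.90 (SE 0.316, unadjusted p = 0.0142, adjusted p = 0.3504). Timp3, Timp4 and Adamts1 also had an unadjusted p under 0.05 there, with values above 0. For Adamts20 the log2 fold change in SBES against Untrained was 0.97 (unadjusted p = 0.022, adjusted p = 0.9137).

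**Figure D5:**
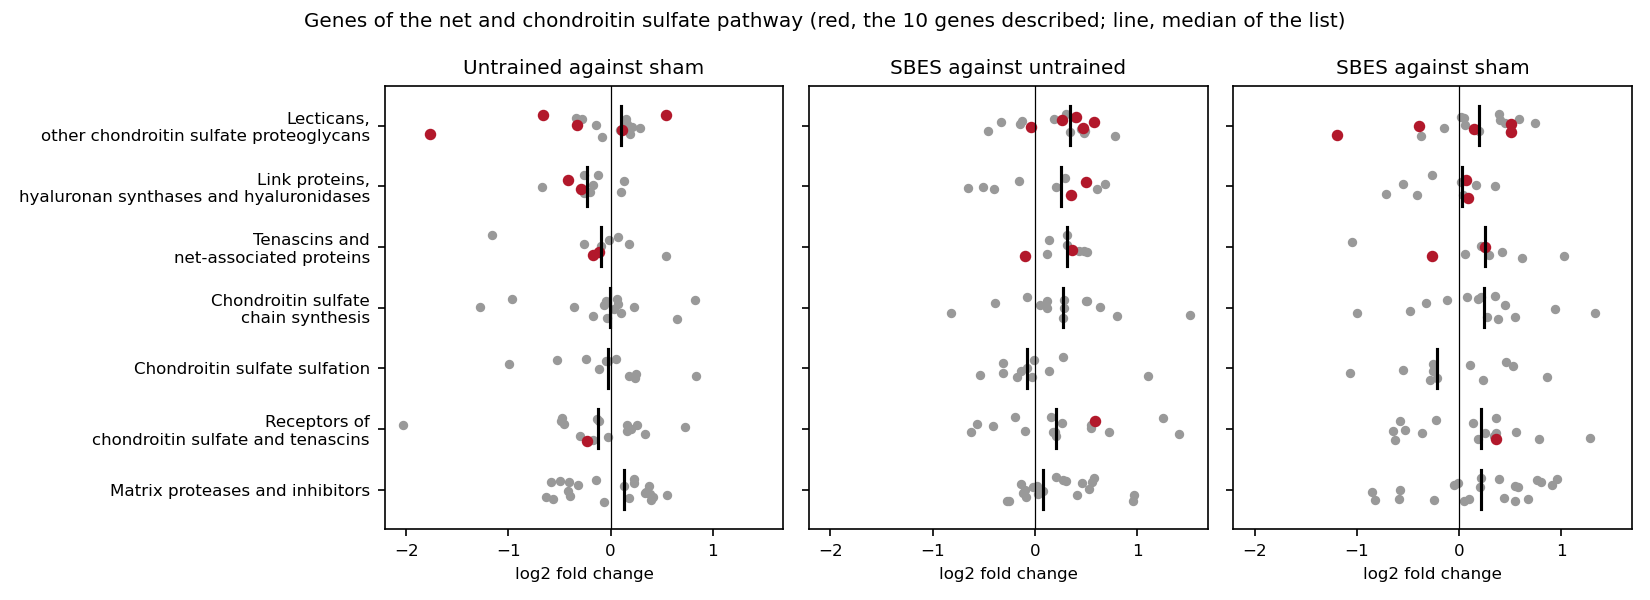
Fitted log2 fold change of every tested gene of the 7 pathway lists, 1 panel per comparison, with the 10 genes described here in red and a line at each list's median. The points spread on both sides of 0 in each panel, and Ncan, at -1.77, is the lowest of the 10 in the left panel, Untrained against Sham.

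Genes whose profile over the 9 libraries was most like that of each gene were found among 4814 genes with a mean FPKM of at least 5, by Pearson's r of log2(CPM + 1). These values are descriptions, since all profiles share the same libraries and the best of many genes is taken. Closest to Ncan were Tspan9, a tetraspanin (r = 0.973), and Scarb2, a lysosomal membrane protein (r = 0.939). Closest to Bcan were Acsl6 (r = 0.924) and Pigz (r = 0.911), and closest to Hapln4 were Map6, a microtubule-binding protein (r = 0.976), and Mboat7 (r = 0.949). For Ptprs they were H4c4 (r = 0.933) and Ptgds (r = 0.926). The likeness was least close for Tnc, with S100a4 at 0.81.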

How the data were processed

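Per the labels' protocols, the authors aligned paired-end reads with Hisat2 2.0.1 and counted genes with HTSeq 0.6.1. Per the submitters' processing notes, the genome was mm10. The authors deposited whole-number counts per gene and library. Per the file headers the other columns are FPKM, and recomputing FPKM from the deposited counts and exonic lengths gave 100% of values within 0.006. For the annotation release and strand setting, the sources used here state nothing.

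Counts were tested with edgeR 4.0.16 (R 4.3.3): filterByExpr kept 15893 genes and at least 99.8% of a library's counts, TMM scaled the libraries, and 1 quasi-likelihood fit of all 9 libraries had a coefficient per group and no covariate. A gene was called at an adjusted p (Benjamini-Hochberg, over all genes tested) under 0.05. Levels are CPM by TMM-adjusted totals, with the SD over 3 libraries. The script was tested on simulated counts. DESeq2 1.42.0, limma 3.58.1 on log2(FPKM + pseudocount), other scalings and filters, a replicate block and leaving out each library were alternatives. Total counts ran from 11821145 to 17675948 per library. Poisson intervals cover counting error only, since PCR copies cannot be told from molecules.

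The 10 genes, the pathway lists and the marker lists were chosen with earlier results of these data known. Named genes are the 10, per list up to 2 of smallest unadjusted p in a comparison, some fixed by name, and for a gene the 2 most alike in profile; the text gives a part of these. RefSeq promoter windows were found for 9 of the 10 genes.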

Additional observations from a re-analysis of the deposited data

How the results depend on the processing

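Each of the 10 genes kept its direction and its side of the threshold in 440 of 471 combinations of gene, comparison and alternative, 29 reversed the sign and 2 passed the test. Both that passed were Ncan with no filter, so that the number of the 10 genes called was then 1 in Untrained against Sham and 1 in SBES against Sham. The reason why more genes were called without a filter was not tested.

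The count of all genes called depended on the method. In Untrained against Sham it was 0 in the fit described, 1 with total count scaling, 134 with no filter, 47 without replicate 1 of every group, 9 with a term for those libraries, 1 with limma on log2(FPKM + 0.1) and 14 with DESeq2. In SBES against Untrained, beside 0 in the fit described, it was 186 with no filter, 13 without replicate 1 of every group, 1 with limma on log2(FPKM + 1), 29 with DESeq2 and 0 to 1 when single libraries were left out. In SBES against Sham, beside 55, it was 517 with no filter, 581 without replicate 1 of every group, 186 with a term for them, 19 and 17 with limma at pseudocounts of 1 and 0.1, 283 with DESeq2, and 0 (without Sham 3) to 86 (without SBES 1) when single libraries were left out. It was 29 without Sham 1, 6 without Sham 2 and 4 without SBES 3. The stricter filter and limma dropped some low genes among the 10, which then have no value.

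The replicate block called 4 genes in Untrained against Sham and 132 in SBES against Sham. It gave Ncan -1.99 (adjusted p = 0.338) and -1.23 (adjusted p = 0.3015) there, and changed no call among the 10. Correlations between same-numbered libraries ran from -0.171 to 0.441, and 7 of 9 were over 0.1, against 5 of 18 between different numbers. The 3 pairs of replicate 1 libraries lay between 0.261 and 0.441, and these libraries also had the highest Malat1 of their groups. Since 2 of the 9 were not over 0.1 and the labels name nothing shared, the numbers were not taken to pair the libraries. Of the 9 libraries, 4 correlated best with their own number.

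The values whose sign turned all had a 95% interval that included 0 in the fit described. With total count scaling, Tnr was 0.10 and Tnc 0.13 in Untrained against Sham. Without replicate 1 of every group, Tnc was 0.84 and Ptprs 0.084 in Untrained against Sham, Cspg4 -0.13 and Tnr -0.36 in SBES against Untrained, and Acan -0.05, Tnr -0.50 and Tnc 0.43 in SBES against Sham. With single libraries left out, signs turned in ranges of -0.35 to 0.53 for Cspg4, -0.27 to 0.083 for Tnr and -0.54 to 0.59 for Tnc in Untrained against Sham. For SBES against Untrained they ran from -0.71 to 0.29 for Vcan, -0.54 to 0.73 for Tnr and -0.37 to 0.27 for Tnc. In SBES against Sham they ran from -0.072 to 0.41 for Acan, -0.14 to 0.91 for Vcan, -0.074 to 0.29 for Hapln1, -0.07 to 0.24 for Hapln4, -0.63 to 0.62 for Tnr and -0.60 to 0.48 for Tnc.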
